A study of Mus musculus with 12 samples.

Results

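The interferon-induced gene families measured here were the 71 protein-coding genes whose mouse symbols start with Ifi and a number, Ifit, Oas, Gbp or Irf and a number, or are Mx1, Mx2, Isg15 or Rsad2, of 55414 genes in the count table. The prefix Ifit also takes in the IFITM genes, and Irf followed by a number also takes in 3 Irf2bp genes, whose products bind IRF2. RNA was taken from the inferior vena cava (IVC) of wild-type C57BL/6J mice, operated at 10 weeks of age and examined on day 7. In the AVF group (n = 6) a needle puncture had joined the infrarenal aorta to the vein, making an arteriovenous fistula (AVF), and in the sham group (n = 6) the vessels had been exposed and clamped without a puncture. Each group held 3 female and 3 male mice. All mice shared the anaesthesia, the long-acting buprenorphine and the operation except for the puncture, and no unoperated vein was measured. The comparison asks how the venous wall differs once it carries fistula flow.

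Interferons are secreted proteins that signal through JAK kinases and the transcription factors these activate. Type I interferon (IFN-alpha and IFN-beta) directs a factor complex that contains IRF9 to the interferon-stimulated response element (ISRE) of antiviral genes, such as the IFIT, OAS and MX families, Isg15 and Rsad2. IFN-gamma, made mainly by T and NK cells, acts on the gamma-activated site (GAS) and is the classical inducer of the guanylate-binding proteins (GBP) and of Irf1. Several members, including Irf5, Irf8 and parts of the Ifi200 family, are also expressed by macrophages at rest, without interferon.

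Short promoter stretches are shown for some members that held a response element before the annotated start. They are from the GRCm39 genome, on the strand of the gene, with the letters of 1 match, the one nearest to the start among those that lie before it, in capitals. The ISRE was searched as GAAANNGAAA and the GAS as TTCNNNGAA, on both strands, from 250 bases before to 50 bases after the annotated start of each gene. In the first 3 lines (typical type I response genes), and in Ifi204 and Ifi211 (both higher in AVF), the capitals are the ISRE letters. In Gbp5 (lower in AVF) and Irf1 they are the GAS letters. The promoter window of Isg15 held 3 ISRE matches and that of Ifit1 2, and Gbp5 held an ISRE match as well, beginning 4 bases before its start. The windows of Ifi30 and Irf5 (higher in AVF) and of Gbp9 and Ifi27l2b (lower in AVF) held neither set of letters.
Isg15, chr4:156285307-156285366, minus strand: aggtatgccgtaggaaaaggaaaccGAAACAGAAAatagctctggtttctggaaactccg
Ifit1, chr19:34618179-34618238, plus strand: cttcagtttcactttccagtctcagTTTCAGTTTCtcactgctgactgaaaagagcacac
Rsad2, chr12:26506537-26506596, minus strand: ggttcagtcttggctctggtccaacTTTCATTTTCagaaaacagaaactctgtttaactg
Ifi204, chr1:173594612-173594671, minus strand: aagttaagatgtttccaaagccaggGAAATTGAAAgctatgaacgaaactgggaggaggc
Ifi211, chr1:173740615-173740674, minus strand: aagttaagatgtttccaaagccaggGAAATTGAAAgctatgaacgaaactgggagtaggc
Gbp5, chr3:142202425-142202483, plus strand: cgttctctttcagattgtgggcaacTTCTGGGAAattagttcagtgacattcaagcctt
Irf1, chr11:53660726-53660784, plus strand: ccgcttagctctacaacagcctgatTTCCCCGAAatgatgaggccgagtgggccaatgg
The Ifi204 and Ifi211 stretches differed at 1 of 60 bases (the whole promoter windows, set side by side without gaps, at 102 of 300), and the ISRE letters began 36 and 37 bases before the annotated starts.

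The ISRE letters were present in 29 of the 71 member promoters (40.8%), against 3.83% of the 21627 protein-coding promoters of the genome. The share was 9 of 11 in the Ifi200 family, 5 of 6 in the IFIT family, 6 of 12 in the OAS family and 4 of 11 among the GBP genes. It was 1 of 9 for the IRF factors, 0 of 7 for the IFITM genes and 0 of 2 for the MX genes. The GAS letters were found in 13 member promoters (18.3%) and in 8.85% of all promoters. These counts describe letters in a window and not bound sites.

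Library depth ran from 15177881 to 22717423 counts, and 3 counts corresponded to between 0.127 and 0.323 normalized CPM, the unit of the levels below (counts scaled to a common library size). Ribosomal RNA genes took 46% of the counts in AVF female 1 and 2.39 to 12.6% in the other 11 libraries. Markers of hepatocytes, the main cell type of the liver, were abundant in AVF libraries #05 (AVF male 2) and #09 (AVF female 2), with a summed level of 2710 and 7640 normalized CPM for 8 markers, against 0.334 to 4.43 in the other 10 libraries. The summed endothelial markers were at 1920 to 2500 normalized CPM in AVF and 1650 to 2820 in sham, and smooth muscle markers at 2200 to 4770 and 2540 to 4650, so that vessel wall markers were present in all 12 libraries.

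Of the 71 members, 62 exceeded 1 CPM in at least 2 libraries and were tested. The other 9 were Gbp2b, Ifi202b, Ifi44l, Ifitm5, Ifitm7, Oas1d, Oas1e, Oas1f and Oas1h. Gbp2b reached 41 counts in 1 library and the remaining 8 at most 5. Per kilobase of exon, averaged over the 12 libraries, the highest level was that of Ifitm3 with 126 normalized CPM per kb, followed by Ifitm2 with 98, Ifi27l2a with 68.8 and Gbp2 with 30.4. Ifitm3 and Ifitm2 encode membrane proteins that block the entry of viruses into cells. The classical inducible antiviral genes varied in level. Isg15 was at 5.2 normalized CPM per kb, Ifit1 at 4.04, Mx1 at 0.927 and Oas1a at 0.673. Others were higher, with 18.1 for Ifit3, 13.1 for Rsad2, 9.68 for Ifit2 and 6.32 for Oasl2.

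The AVF and sham groups differed in few members, and of the 19 antiviral genes (the tested OAS, IFIT and MX genes with Isg15, Rsad2 and Irf7) 0 passed the test, with 8 of them at an unadjusted p under 0.05 and 3 passing by DESeq2. The share of all genes called by DESeq2 is not given. The DESeq2 counts here and below therefore have no background, and the shares of all genes called are those of edgeR. At an adjusted p under 0.05 (edgeR's quasi-likelihood test, Benjamini-Hochberg over all 15912 genes tested), 4 members were higher in AVF: Ifi30, Irf5, Ifi211 and Ifi204. Another 3, Gbp5, Gbp9 and Ifi27l2b, were lower. The shares, 6.45% and 4.84% of the 62 members, were near those of all genes tested, of which 8.63% were higher and 5.13% lower. With the further condition of a change of at least 2-fold, 0 members were higher (also 0 by DESeq2) and 1 was lower (Ifi27l2b), against 3.37% and 1.4% of all genes. Ifi27l2b passed the CPM filter through sham libraries only. Among the members 21 (33.9%) had an unadjusted p under 0.05, 16 of them higher in AVF, against 31.6% of all genes (5023, of which 2610 were higher). The median log2 fold change was 0.11 over the members and -0.01 over all genes tested.

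**Figure D1:**
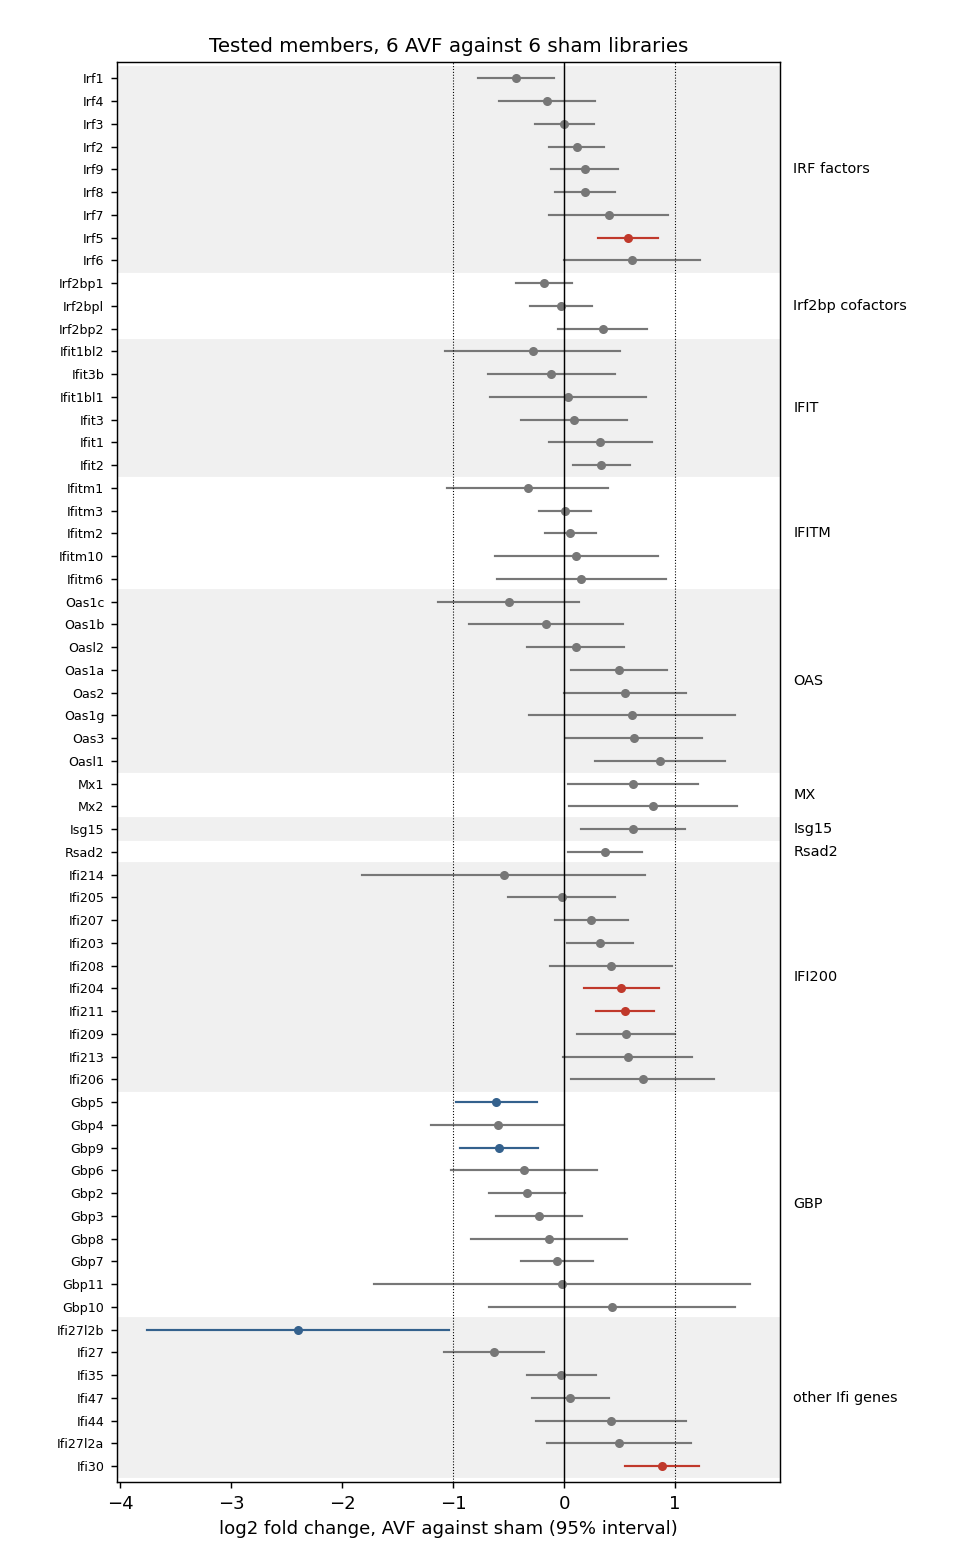
Log2 fold change of AVF against sham for the 62 tested members, with 95% intervals, grouped by family. Red and blue mark the 4 members higher and the 3 lower in AVF at an adjusted p under 0.05, grey those that did not pass, and dotted lines a 2-fold change. Of the 10 GBP genes 9 lie left of 0, and of the 10 Ifi200 genes 8 lie right of it.

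Ifi30 showed the largest increase among the members that passed. It encodes a thiol reductase of lysosomes that opens disulfide bonds of proteins taken up for antigen presentation. Its level was 26.1, 28.1 and 38.6 normalized CPM (lowest, median and highest) in AVF, against 11.9, 15.5 and 21 in sham. All 6 AVF libraries lay above all 6 sham libraries, a separation found for 4.55% of all genes tested. The means were 29.8 ± 4.68 and 16.2 ± 3.77 (SD, n = 6 each), and the fitted change was 1.84-fold (95% interval 1.46 to 2.32, adjusted p = 0.0037 by edgeR). The gene lies at chr8:71215403-71219334 on the minus strand, and its promoter window held neither set of letters.

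Irf5 encodes a transcription factor that myeloid cells and B cells use downstream of Toll-like receptors. It was at 10.9, 14.3 and 15.7 normalized CPM in AVF (lowest, median, highest) and at 8.04, 8.93 and 11.4 in sham. AVF female 1 was the single AVF library within the sham range. The change was 1.49-fold (95% interval 1.24 to 1.8, adjusted p = 0.012 by edgeR), but the adjusted p was 0.053 by edgeR's exact test. Among the other interferon regulatory factors, Irf1, the factor induced early by IFN-gamma, had a mean of 28.5 ± 7.06 in AVF and 38.5 ± 4.61 in sham (log2 difference -0.43, adjusted p = 0.082). Irf7, which amplifies type I interferon production and is itself interferon-induced, was at 15.7 ± 5.71 and 11.9 ± 3.07 (adjusted p = 0.29). Irf3, the constitutive activator of the IFN-beta gene, was at 13.2 ± 2.39 and 13.2 ± 1.13, and the 95% interval of its log2 difference ran from -0.27 to 0.27. Irf9, the DNA-binding part of the type I complex, gave a log2 difference of 0.18 (adjusted p = 0.39) and Irf2, a repressor at the same element, 0.11 (adjusted p = 0.54). Of the 9 factors, 1 passed the test (2 by DESeq2, Irf5 and Irf1), and 0 of the 3 Irf2bp genes did, with 0 at an unadjusted p under 0.05 and 0 by DESeq2. Irf2bp2 and Irf2bpl, those with the highest CPM, had log2 differences of 0.35 and -0.03 (adjusted p = 0.22 and 0.91).

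The Ifi200 family encodes PYHIN proteins, many of which bind DNA in the nucleus or cytosol. Of its 10 tested members 2 rose and 8 had a positive difference, with a median log2 fold change of 0.47. Of all genes tested 8.63% were higher by the same test and 48.1% had a positive difference. Ifi211 (chr1:173723911-173740612, minus strand) was at 29.9, 39.3 and 44.8 normalized CPM in AVF and at 22.7, 25.3 and 31.5 in sham. Only AVF male 3 lay within the sham range, and the change was 1.46-fold (95% interval 1.22 to 1.75, adjusted p = 0.013 by edgeR). Ifi204, a DNA sensor acting through STING (chr1:173574859-173594610, minus strand), was at 54.4, 73.8 and 88 in AVF and at 41.2, 46.1 and 68.5 in sham. The groups overlapped, since sham male 1 and sham female 2 lay above AVF male 3 and AVF female 1. Its change was 1.43-fold (95% interval 1.13 to 1.81, adjusted p = 0.046 by edgeR). Ifi203 and Ifi207, the members with the highest CPM (not divided by length), had log2 differences of 0.32 and 0.25 (adjusted p = 0.12 and 0.29).

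These calls were sensitive to the libraries used. With AVF male 2 and AVF female 2, the libraries that held hepatocyte markers, left out, the log2 differences of Ifi211 and Ifi204 were 0.46 and 0.42 (adjusted p = 0.063 and 0.17), whereas Ifi30 and Irf5 still passed with 0.89 and 0.59 (adjusted p = 0.014 and 0.031). Ifi204 also lost its call when any of 9 single libraries was left out (adjusted p up to 0.10), and kept it only without AVF male 3, AVF female 1 or sham male 1. The Ifi200 genes are sequence relatives in a cluster on chromosome 1, and how the read assignment divided shared reads among them is uncertain.

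The GBP genes encode large GTPases that assemble on vacuoles of intracellular pathogens. Of the 10 tested, 9 had lower mean values in AVF and 2 passed the test, with a median log2 fold change of -0.28. Of all genes tested 5.13% were lower by the same test, and 8256 of 15912 had a negative difference. Gbp5 (chr3:142199739-142228105, plus strand), which also promotes inflammasome activation, was at 11.2, 18.3 and 21.3 normalized CPM in AVF (lowest, median, highest) and at 18, 28.7 and 30.3 in sham. Sham female 2 was the single sham library inside the AVF range. The change was 0.654-fold (95% interval 0.508 to 0.842, adjusted p = 0.032 by edgeR). Gbp9 (chr5:105224332-105287452, minus strand) was at 30.8, 48.5 and 60 in AVF and at 56.1, 73.6 and 88.8 in sham. Its 2 highest AVF libraries lay above the lowest sham library, and the change was 0.665-fold (95% interval 0.521 to 0.849, adjusted p = 0.033 by edgeR). Gbp2 and Gbp7, the GBP genes with the highest CPM, had log2 differences of -0.33 and -0.07 (adjusted p = 0.17 and 0.80), which did not pass.

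Both GBP calls were lost when some single libraries were left out. The log2 difference then ran from -0.70 to -0.51 for Gbp5 and from -0.66 to -0.49 for Gbp9 over all such fits. Without AVF male 2 and AVF female 2 the log2 differences were -0.67 for Gbp5 and -0.64 for Gbp9, with adjusted p of 0.062 and 0.055. Gbp5 no longer passed without AVF male 2, AVF female 1, sham male 1, sham male 2, sham male 3 or sham female 1 (adjusted p up to 0.069), nor Gbp9 without AVF male 2, AVF male 3, sham male 1, sham male 2 or sham male 3 (up to 0.07). Gbp9 overlaps Gbp4 and Gbp8 on the same strand in the annotation, so its reads could not be assigned with certainty.

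**Figure D2:**
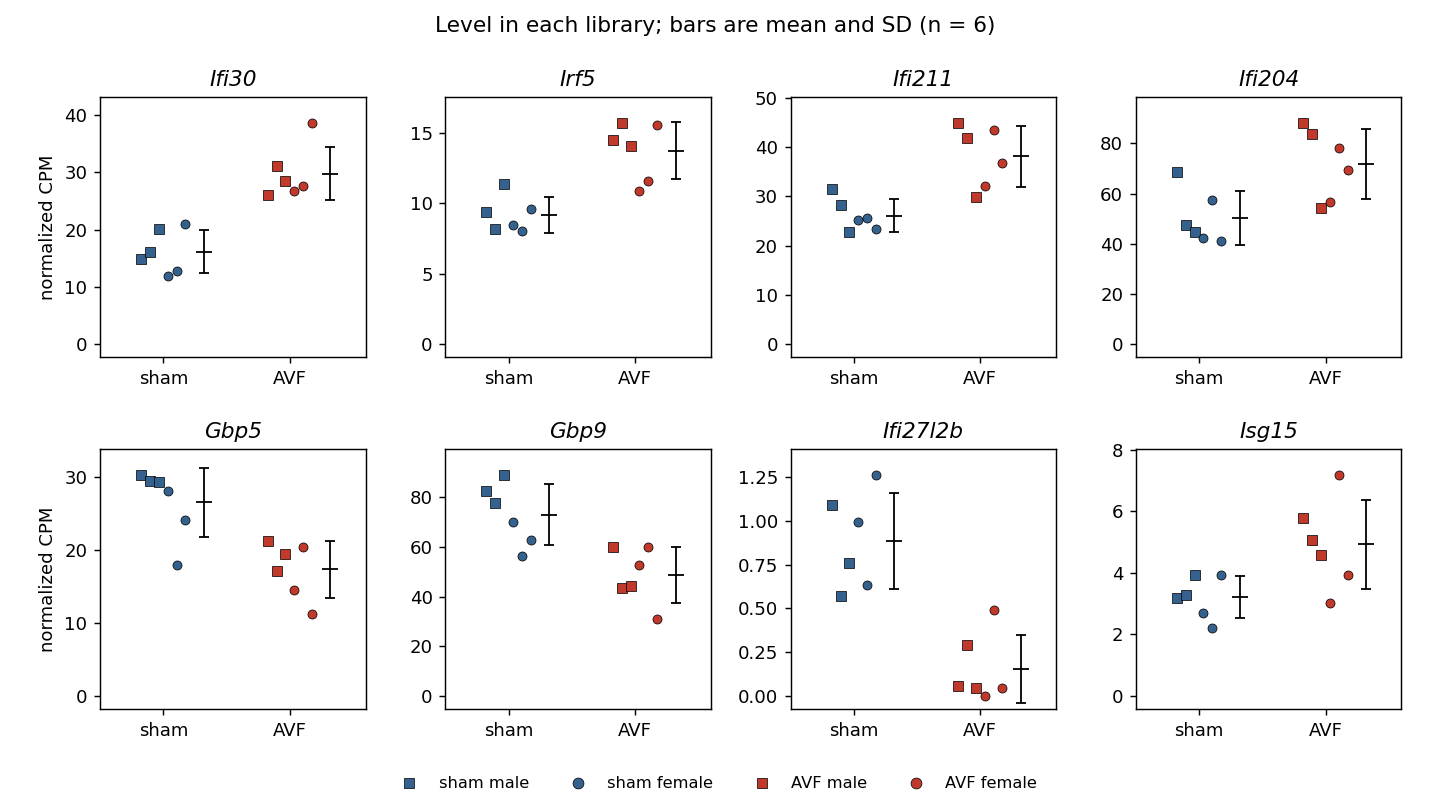
Normalized CPM of the 7 members that passed the test and of Isg15 in each of the 12 libraries (squares male, circles female), with the mean and SD of each group (n = 6). The groups do not overlap for Ifi30 and Ifi27l2b, and the AVF points of Gbp5 and Gbp9 lie mostly below the sham points.

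Of the 19 antiviral genes 15 had a positive difference, against 48.1% of all genes tested, and 0 passed the test. Isg15, a ubiquitin-like modifier, was at 3.02, 4.81 and 7.17 normalized CPM in AVF and at 2.2, 3.23 and 3.93 in sham. The ranges overlapped, with AVF female 1 below the sham median, and the log2 difference was 0.62 (95% interval 0.15 to 1.09, adjusted p = 0.074 by edgeR, 0.026 by DESeq2). Rsad2 (viperin), which makes a chain-terminating nucleotide, was at 46.4, 67.4 and 77.5 in AVF and at 37.9, 49.1 and 63.6 in sham (log2 difference 0.37, adjusted p = 0.12).

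The IFIT proteins bind viral RNA and block its translation. Of 6 tested, 0 passed, with 1 at an unadjusted p under 0.05 (Ifit2, which passed by DESeq2). Ifit1 had means of 33.3 ± 10.6 normalized CPM in AVF and 26.6 ± 5.88 in sham (adjusted p = 0.32), and Ifit3 of 53.8 ± 17.7 and 50.6 ± 11.5 (adjusted p = 0.82). Ifit2 came nearest, with 63.8 ± 7.77 against 50.6 ± 8.48 (log2 difference 0.34, adjusted p = 0.079). Of the 5 IFITM genes 0 passed, with 0 at an unadjusted p under 0.05 and 0 by DESeq2. Ifitm3 was at 161.9 ± 18.3 and 161.4 ± 23.1, and the 95% interval of its log2 difference, -0.23 to 0.24, leaves out a change of 1.2-fold in either direction. For Ifitm2 the interval was -0.17 to 0.29.

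The OAS enzymes make the 2-5A messenger that activates RNase L. Of the 8 tested, 6 had a positive difference and 0 passed, with 3 at an unadjusted p under 0.05 and 1 by DESeq2 (Oasl1). The median log2 fold change was 0.52. Oas1a was at 6.3 ± 1.46 normalized CPM in AVF and 4.45 ± 1.05 in sham (adjusted p = 0.11), Oas2 at 7.84 ± 3.18 and 5.35 ± 0.797 (adjusted p = 0.16), and Oasl2 at 41.7 ± 11.4 and 38.8 ± 7.82 (adjusted p = 0.76). Oasl1, named after its values were seen, came closest to the threshold with a log2 difference of 0.86 (adjusted p = 0.052). The MX GTPases, of which Mx1 carries a non-functional allele in C57BL/6 mice, had log2 differences of 0.62 for Mx1 and 0.80 for Mx2 (adjusted p = 0.14 for both), at levels of 3.78 ± 0.858 and 3.33 ± 1.69 in AVF and 2.47 ± 0.893 and 1.91 ± 0.562 in sham.

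Several of these differences were smaller without the 2 libraries that held hepatocyte markers. The log2 difference was then 0.44 for Isg15, 0.09 for Ifit1, 0.11 for Irf7, 0.0069 for Irf9, 0.30 for Oas2 and 0.34 for Mx2, with adjusted p between 0.24 and 0.98.

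Over the 19 antiviral genes, the mean of log2(normalized CPM + 1) was 2.61, 3.11 and 3.42 in AVF (lowest, median, highest) and 2.62, 2.93 and 3.03 in sham. The AVF libraries spanned the whole sham range. AVF female 2 gave the highest value and held the maximum of 9 of the 19 genes, whereas AVF female 3 gave the lowest and held the minimum of 7. For the 10 Ifi200 genes the same mean was 3.88 to 4.5 in AVF and 3.73 to 4 in sham, and for the 10 GBP genes 3.63 to 4.95 and 4.24 to 4.93. AVF female 3 was thus the lowest AVF library for the antiviral and GBP genes, but not for the Ifi200 genes or for Ifi30, for which it was the highest.

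**Figure D3:**
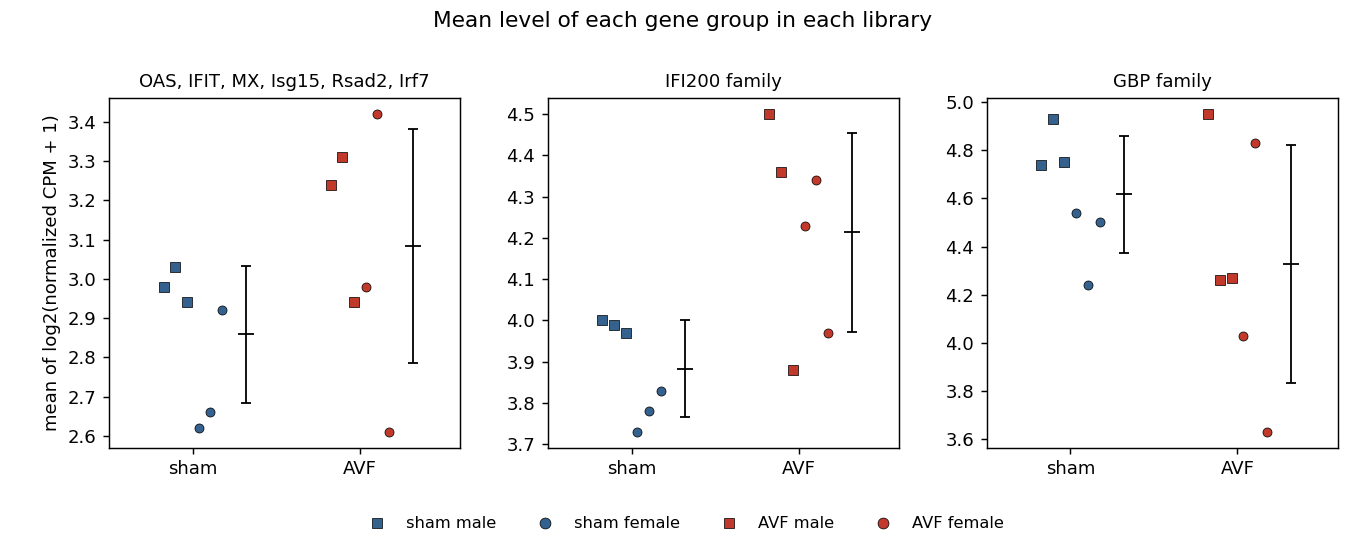
Mean of log2(normalized CPM + 1) in each of the 12 libraries over 19 antiviral genes (left), the 10 Ifi200 genes (middle) and the 10 GBP genes (right), with the mean and SD of each group (n = 6). The AVF points run from 2.61 to 3.42, 3.88 to 4.5 and 3.63 to 4.95, and the lowest point of the left and right panels is AVF female 3.

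Among the remaining Ifi genes, Ifi27l2b (chr12:103417157-103423482, minus strand), which encodes a small membrane protein of the ISG12 family, fell in AVF to a few counts. Its counts were 1, 6 and 1 in the AVF males, 0, 9 and 1 in the AVF females, 23, 12 and 18 in the sham males, and 19, 15 and 26 in the sham females. All AVF libraries lay below all sham libraries, as for 1.51% of all genes tested. Only sham libraries exceeded 1 CPM, and the highest AVF library was at 0.493 normalized CPM. The gene thus entered the test through the group where it was higher, which limits the weight of this call. With no filter beyond a count in any library, the log2 difference was -2.39 (adjusted p = 0.04 by edgeR). The fitted change was 0.19-fold (95% interval 0.0739 to 0.489, adjusted p = 0.024 by edgeR), and without sham female 3 the adjusted p was 0.051. The counts of 6 and 9 came from AVF male 2 and AVF female 2, and the other 4 AVF libraries had at most 1 count. The fitted log2 difference was -2.40 with all libraries, -3.13 without AVF female 2 and -4.20 without both, the last resting on at most 1 count per AVF library. The neighbouring Ifi27, a member of the same family, had means of 81.2 ± 17.2 normalized CPM in AVF and 125.9 ± 39.3 in sham (log2 difference -0.63, adjusted p = 0.061), and passed by DESeq2 (adjusted p = 0.023). Ifi27l2a was at 87.2 ± 45.9 and 62 ± 16 (adjusted p = 0.28). Ifi27 and Ifi27l2a overlap on opposite strands.

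The changes were set beside the response elements of the promoters. The median log2 fold change was 0.18 over the 28 tested members with ISRE letters in the promoter and 0.11 over the 34 without, and 2 and 2 of them were among those higher in AVF. It was 0.06 over the 11 with GAS letters and 0.18 over the 51 without.

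The genes upstream of the members gave the following picture. Of 20 interferon genes, 18 had no count in any library. Ifng had counts in 6 libraries, at most 10, and Ifna2 at most 2, so that ligand expression was not detectable at this depth beyond these traces. Of the 13 tested receptor and signalling genes 2 were higher in AVF, both receptor chains, against 8.63% of all genes. Ifnar1, a chain of the type I receptor, had means of 61.5 and 50 normalized CPM (log2 difference 0.30 ± 0.07 SE, adjusted p = 0.017), and Ifngr2, a chain of the IFN-gamma receptor, 48.5 and 36.2 (0.42 ± 0.09, adjusted p = 0.011). The AVF range lay wholly above the sham range for both, as for 4.55% of all genes tested.

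Of the 15 nucleic acid sensors and adaptors, 2 were higher in AVF by edgeR (13.3%, against 8.63% of all genes). DESeq2 called 4, Aim2, Cgas, Tlr7 and Tlr9, with no share of all genes to set beside that count. A positive difference was found for 14 of the 15 (93.3%, against 48.1% of all genes). Tlr7, the endosomal sensor of single-stranded RNA, was at 36.7 and 19.6 normalized CPM (log2 difference 0.91, adjusted p = 0.017), and Tlr9, the sensor of CpG DNA, at 4.13 and 2.41 (0.78, adjusted p = 0.045). The cytosolic sensors of RNA encoded by Rigi and Ifih1 had log2 differences of 0.21 and 0.05 (adjusted p = 0.35 and 0.86). For the cytosolic sensors of DNA encoded by Aim2 and Cgas these were 0.72 and 0.48 (adjusted p = 0.051 and 0.069 by edgeR). Of 25 further interferon-induced genes 1 passed by edgeR (4%, against 8.63% of all genes), Lgals3bp, with a log2 difference of 0.39 (adjusted p = 0.027). DESeq2 called 2, Eif2ak2 and Lgals3bp. In this list 20 genes had a positive difference (80%, against 48.1% of all genes), and the median was 0.11. At an unadjusted p under 0.05 there were 6, all higher in AVF (24%, against 31.6% of all genes).

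Among 24 tested genes of the IFN-gamma program, 3 were higher and 0 lower by edgeR, against 8.63% and 5.13% of all genes. These were Ciita, the master activator of MHC class II genes (log2 difference 0.80, adjusted p = 0.024), Cd74, the class II invariant chain (0.50, adjusted p = 0.037), and H2-Ab1, a class II chain (0.53, adjusted p = 0.043). Over the whole list 11 genes had a positive difference (45.8%, against 48.1% of all genes), and the median was -0.05. At an unadjusted p under 0.05, 5 were higher and 3 lower. The 13 genes with negative differences did not pass by edgeR. They included the GTPase gene Tgtp1 (-0.80, adjusted p = 0.079 by edgeR) and Cd274, which encodes PD-L1 (-0.82, adjusted p = 0.072). Tgtp1 and Cd274 passed by DESeq2, which called 5 of the 24 genes. The pathway lists were assembled with earlier results of these data known.

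Macrophage markers differed between the groups in the same libraries. The sum over 10 markers was 1160, 1350 and 1900 normalized CPM in AVF (lowest, median, highest) and 621, 882 and 1010 in sham, without overlap, and 8 of the 10, such as C1qa and Lyz2, were higher at an adjusted p under 0.05. None of the 10 was at 0 in all libraries. For this and the counts of other markers below, 8.63% of all genes tested were higher and 5.13% lower by edgeR. AVF female 3 had both the highest macrophage sum and the highest Ifi30. The other AVF libraries did not follow the same order. AVF male 1, with a sum of 1490, had the lowest Ifi30 in AVF (26.1 normalized CPM). AVF male 2, with a sum of 1290, had Ifi30 at 31.2. Dendritic cell markers summed to 34.1 to 44.6 in AVF and 29.5 to 39.4 in sham, with 1 of 6 higher, and fibroblast markers to 14400 to 25800 and 6050 to 13100, with 4 of 5 higher. Markers of T and NK cells were low in both groups, 7.97 to 11 and 7.83 to 11.5, with 0 of 7 tested passing (0 at an unadjusted p under 0.05 and 0 by DESeq2). Sympathetic neuron markers summed to 65.9 to 427 in AVF and 181 to 754 in sham, and 0 of 5 passed by edgeR, with 5 at an unadjusted p under 0.05 and 5 passing by DESeq2, all lower in AVF. Brown adipocyte markers summed to 42.9 to 305 and 94.1 to 1680, with 1 of 5 lower. Cardiac muscle markers summed to 933 in sham female 1 and to 45 to 97.3 in the other 11 libraries. The part of these cell types in the differences of Ifi30, Irf5 and the Ifi200 genes was not tested, and in whole tissue more cells of a type and more RNA per cell cannot be told apart.

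**Figure D4:**
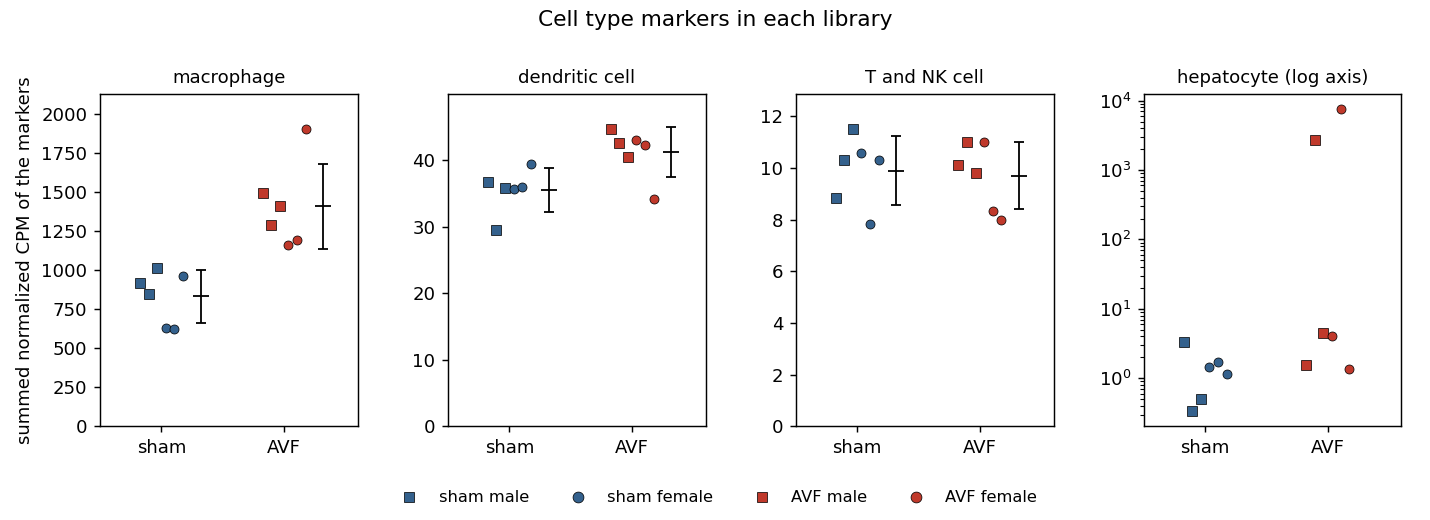
Summed normalized CPM of the markers of 4 cell types in each library (squares male, circles female), with the mean and SD of each group (n = 6) on linear axes, and without them on the log axis for hepatocytes. Macrophage markers run from 1160 to 1900 in AVF and from 621 to 1010 in sham, and hepatocyte markers reach 2710 and 7640 in 2 AVF libraries.

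Female and male mice were compared within each operation, at a lower threshold of 1.5-fold and over 22163 genes, of which 65 were members. No member passed the test between the sexes in AVF (0 of 65, against 0.0226% of all genes) or in sham (0 of 65, against 0.0451%), and none for an interaction of operation and sex (0 of 65, against 0% of all genes), by edgeR's quasi-likelihood test with 3 mice per group. At an unadjusted p under 0.05 the counts were 0, 12 and 2 members, and 4.53%, 7.58% and 4.82% of all genes. In sham the 12 members made up 18.5%, and 10 of them were higher in males, among them Ifit2 and Rsad2. Rsad2 was at 63.6, 55.8 and 56 normalized CPM in the sham males and at 37.9, 41.4 and 42.3 in the sham females. The log2 difference in sham was -0.51, which did not pass (adjusted p = 0.57 by edgeR). In AVF it was at 46.4 to 69.3 in the males and 54.2 to 77.5 in the females. Irf4, a factor of lymphocytes and some macrophages, named after its values were seen, had the smallest adjusted p of the members in sham. It was at 16.8, 18.4 and 15.9 in the sham males and at 29.4, 26.8 and 33.4 in the sham females (log2 difference 0.83, adjusted p = 0.28), and was the 1 member called by DESeq2 in these comparisons, which called 0 in AVF and 0 for the interaction.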

How the data were processed

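Poly(A) RNA of 12 IVC samples was sequenced in stranded libraries. Per the labels, the authors trimmed reads with Trimmomatic 0.39, aligned them to GRCm39 with STAR 2.7.7a and estimated expected counts per gene with RSEM 1.3.3, deposited as 1 table. RSEM divides reads shared by similar genes, so values of close relatives depend on each other. Here the expected counts were rounded and tested with edgeR 4.0.16 (TMM, quasi-likelihood, R 4.3.3, DESeq2 1.42.0 as an alternative), with a filter of over 1 CPM in at least 2 libraries (over 12 counts in total for the sexes). CPM were normalized with the TMM factors. Positions and names were from a later GENCODE release (M39) than the authors' annotation, and 665 IDs had no name. Named genes were those past an adjusted p of 0.05, the 2 most abundant of each family and 14 typical genes. The members, lists and rules were chosen with earlier results of these data known. On simulated counts the comparison of AVF and sham recovered 183 of 200 genes changed 4-fold, with 3 false calls, over 15912 genes. No smaller change was simulated. Recovery of changes under 2-fold, the size seen in the called members other than Ifi27l2b, is therefore not known from this simulation.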

Additional observations from a re-analysis of the deposited data

Results flagged for a closer look

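Over the 32 named members, each searched in the 6 AVF and the 6 sham libraries, 2 of 64 searches (3.12%) found a library far from the others of its group, by Dixon's ratio of gap to range and its 95% limit for 6 libraries. Chance marks about 1 search in 20. Ifi203 was at 58.1 normalized CPM in AVF female 3, with the next AVF library at 85.1 (ratio 0.737). Oasl2 was at 23.8 in sham female 1, with the next sham library at 39.8 (ratio 0.749). No named member had an interaction of operation and sex at an adjusted p under 0.05.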

How the results depend on the processing

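The count of members higher in AVF by at least 2-fold was 0 under every alternative that kept the fold threshold, and 4 without it. The count lower was 1, with 3 without the fold threshold, 0 with the replicate block and 0 to 1 with each library left out (0 without sham female 3). Counted at the adjusted p alone (settings for this count were chosen after seeing the data), 4 members were higher and 3 lower, against 8 and 5 by DESeq2, 2 and 1 without AVF male 2 and AVF female 2, and 3 to 7 and 1 to 4 with single libraries left out (7 higher without AVF female 3, 1 lower without AVF male 2 or sham male 1). The share of all genes called under each of these other settings is not given, so these counts have no background beside them. The replicate numbers did not pair the mice. The correlation of deviations between same-numbered AVF and sham libraries of a sex ran from -0.224 to 0.289, with 3 of 6 over 0.1. With the block 4 members were higher and 3 lower (Gbp5, Gbp9, Ifi27), and Ifi27l2b had an adjusted p of 0.055. Among the 32 named members the direction changed for 5, all with differences near 0: without AVF male 2 and AVF female 2 for Ifit3 (-0.14), Ifitm3 (-0.075), Irf2bpl (0.034), Irf3 (-0.10) and Oasl2 (-0.073), without the ribosomal genes for Ifitm3 (-0.0018) and Irf3 (-0.0031), and for Irf3 with sex as a covariate (-0.0070) or the block (-0.011). With single libraries left out these ran from -0.062 to 0.22 for Ifit3, -0.051 to 0.080 for Ifitm3, -0.091 to 0.040 for Irf2bpl, -0.064 to 0.077 for Irf3 and -0.0028 to 0.23 for Oasl2. In the sexes DESeq2 called 1 member in sham (Irf4), and the counts were otherwise 0. The causes were not tested. Genes under about 1 CPM rest on few counts.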

Other observations

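The spread between libraries of a group was compared for the members. The SD of log2(normalized CPM + 1) was larger in AVF for 44 of the 62 tested members (71%), including 10 of 10 GBP genes, against 56.9% of all genes tested. Without AVF female 3 it was larger for 31 of 62 (50%) and 5 of 10 GBP genes, against 53.1% of all genes, and without AVF male 2 and AVF female 2 for 43 of 62 (69.4%, against 55.8% of all genes). Without AVF female 1 it was larger for 36 of 62 (58.1%, against 50.7%). B cell markers, which carry Irf4, Irf5 and Irf8 expression in lymphoid tissue, summed to 61.3 to 315 normalized CPM in AVF and 44.8 to 177 in sham, with 0 of 6 passing the test by edgeR (1 at an unadjusted p under 0.05, and 1 by DESeq2, Ms4a1). Neutrophil markers summed to 25.1 to 45 and 14.8 to 108, and the sum was highest in sham male 1.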
